A study of Mus musculus with 12 samples.

Results

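The let-7 and miR-98 family comprised 9 of the 1881 mouse miRNAs on the arrays, namely the mature arms mmu-let-7a-5p, mmu-let-7b-5p, mmu-let-7c-5p, mmu-let-7d-5p, mmu-let-7e-5p, mmu-let-7f-5p, mmu-let-7g-5p, mmu-let-7i-5p, and mmu-miR-98-5p (the prefix is left out from here on). The rule selects them by name and uses no measured value, although the family was picked for description with earlier results of these data known. The RNA came from exosomes, the small membrane vesicles that cells release, captured with an antibody to the microglial surface protein CD11b from the brains of male C57BL/6 mice. The 4 groups were sham mice, which received every step except the impact, and mice at 3, 14, and 42 days post-injury (DPI) after repetitive mild traumatic brain injury (rmTBI), a closed-head model of 4 impacts with an interval of 48 h. Each group held 3 single-color Agilent arrays, 12 in all. The labels call these replicates without naming the animals behind them, so the p-values measure only the spread between arrays, which may be technical. The mice of all groups were adults at the start. The number of mice behind an array was not given in the sources used here, and capture of vesicles by CD11b also admits those of other myeloid cells.

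let-7 miRNAs bind messenger RNAs through the seed, the bases near the 5′ end that pair with the target, and members with the same seed are expected to share many targets. The family is known for rising as cells leave the stem cell state, for restraining growth genes such as Ras and Hmga2, and for being opposed by the RNA-binding proteins Lin28a and Lin28b, which block maturation of the precursors. In the adult brain let-7 miRNAs belong to the abundant miRNAs of neurons and glia, and extracellular let-7b has been studied as a ligand of the RNA sensor Tlr7. miR-98 carries the same seed, with its own bases in the remainder of the molecule.

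The 9 mature sequences are shown because the members differ from each other by few bases, which bears on every comparison among them. They are written 5′ to 3′ as RefSeq gives them (GRCm38.p6), with the seed, bases 2 to 8, in capitals.
let-7a-5p: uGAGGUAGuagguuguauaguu
let-7b-5p: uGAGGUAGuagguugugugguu
let-7c-5p: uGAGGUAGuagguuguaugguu
let-7d-5p: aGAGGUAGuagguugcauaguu
let-7e-5p: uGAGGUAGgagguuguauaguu
let-7f-5p: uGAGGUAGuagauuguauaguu
let-7g-5p: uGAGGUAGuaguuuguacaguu
let-7i-5p: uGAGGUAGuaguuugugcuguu
miR-98-5p: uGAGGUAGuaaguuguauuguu

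All 9 were 22 bases long and shared 1 seed, GAGGUAG. Counted from the 5′ end with the base of let-7a first, let-7c differed from let-7a by A19G, let-7e by U9G, and let-7f by G12A, each a single substitution. let-7b carried A17G and A19G, let-7d carried U1A and U16C, and let-7g carried G12U and U18C. miR-98 carried G11A and A19U. let-7i was the most distant, with G12U, A17G, U18C, and A19U. G and C made up 31.8% of let-7f and miR-98, 36.4% of let-7a and let-7g, 40.9% of let-7c, let-7d, let-7e, and let-7i, and 45.5% of let-7b. Whether the array probes separate members that differ by 1 base was not tested, so a member's signal may hold some of its neighbor's.

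The genes lie in several clusters. On mouse chromosome X of GRCm38.p6, let-7f-5p of Mirlet7f-2 (chrX:151912353-151912374, plus strand) and miR-98-5p (chrX:151913229-151913250, plus strand) start 876 bases apart within the span of Huwe1. A further copy of let-7f-5p comes from Mirlet7f-1 (chr13:48537889-48537910, minus strand), between let-7d-5p (chr13:48536078-48536099) and let-7a-5p of Mirlet7a-1 (chr13:48538239-48538260), both on the minus strand. let-7b-5p (chr15:85707325-85707346, plus strand) and let-7c-5p of Mirlet7c-2 (chr15:85706616-85706637, plus strand) start 709 bases apart within Lncppara. let-7c-5p also comes from Mirlet7c-1 (chr16:77599672-77599693, plus strand), next to Mir99a, and let-7e-5p (chr17:17830366-17830387, plus strand) lies within the span of Spaca6, next to Mir99b and Mir125a. let-7g-5p (chr9:106178846-106178867, plus strand) lies within the span of Wdr82, and let-7i-5p (chr10:122985698-122985719, minus strand) has no other miRNA gene within 10 kb. let-7a-5p has a further gene, let-7a-2, whose position was missing from the reference used here. An array of mature miRNAs cannot tell which copy of let-7a, let-7c, or let-7f gave the signal.

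Each member was read by 2 probes of 15 spots each. All 9 were detected on all 12 arrays, where a miRNA counts as detected if 1 of its probes had over 0.5 of its remaining spots well above background, and no member spot was saturated. The median coefficient of variation over the spots of a probe was 3.11%, while it reached 33.7% for miR-98-5p, whose signal was dim. The level used below is the log2 scaled signal, the summed intensity of a miRNA's probes divided by the 75th percentile of that array, taken across the 230 miRNAs that every array detected. Before scaling, that percentile was 217 to 348 intensity units on the sham arrays and 1385 to 2936 on those of 42 DPI, with 3 and 14 DPI between (401.5 to 619.5 and 588 to 1173), so brightness moved with the group. The source of this difference in brightness was not tested. More vesicles, more RNA per vesicle, and steps in the handling of the arrays cannot be told apart in such samples. Slide 1 held the 3 sham arrays and replicate 1 of 3 DPI, and slide 2 held the other 8, so slide and injury cannot be told apart for 14 and 42 DPI against sham. All 3240 member spots lay at scan positions on the grid of their own array. That did not hold for miR-124-3p, one of the neuronal markers used below, whose 30 spots lay on the grid of another array in each of the 9 injury files.

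**Figure D1:**
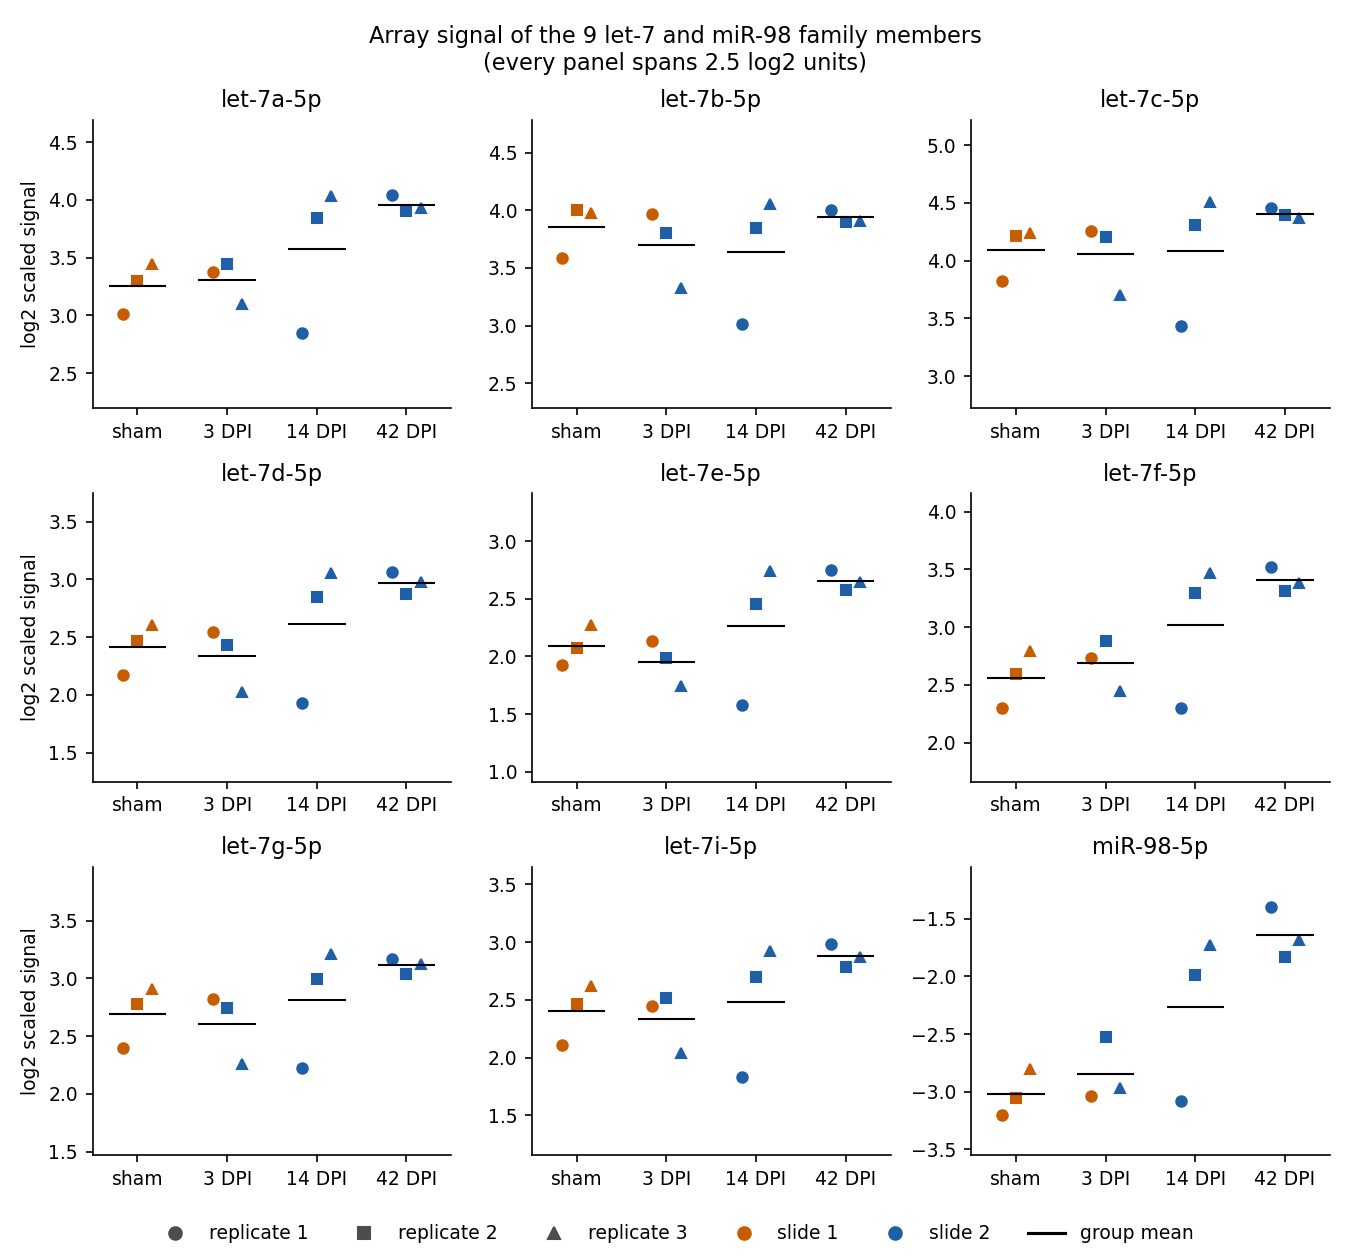
Log2 scaled signal (y axis) of each member on each array by group (x axis), with a bar at the mean of 3 arrays, the marker giving the replicate and the color the slide. 14 DPI replicate 1 was the lowest or next to lowest array of its panel, and the 3 arrays of 42 DPI lay above all sham arrays for every member except let-7b-5p.

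No member passed the test against sham at 3 or 14 DPI, and at 42 DPI 2 of the 9 did, let-7f-5p and miR-98-5p, both higher. At 42 DPI, 34.2% of the 486 miRNAs tested were called (limma, adjusted p under 0.05 over all of them, either direction) and 13.6% were called higher, so 2 of 9 members called higher is a share near the background. With only the 230 miRNAs detected on all arrays tested, a set that holds all 9 members, 51.3% were called in either direction. Among those called were let-7f-5p and miR-98-5p (limma adjusted p = 0.0358 and 0.0058). All 9 members had a positive log2 difference at 42 DPI, with a median of 0.56 and a range of 0.08 to 1.38, although let-7b-5p and let-7g-5p turned to -0.10 and -0.03 with quantile normalization, let-7b-5p to -0.03 in the deposited table and -0.09 without sham replicate 1, and miR-98-5p to -0.05 with normexp. The median over all miRNAs tested was -0.09, and 39.3% of them were above 0. Over the 230 detected on all arrays the median was -0.02. In 8 of 9 members the 3 arrays of 42 DPI lay above the 3 sham arrays, a pattern found for 31.3% of all miRNAs tested.

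**Figure D2:**
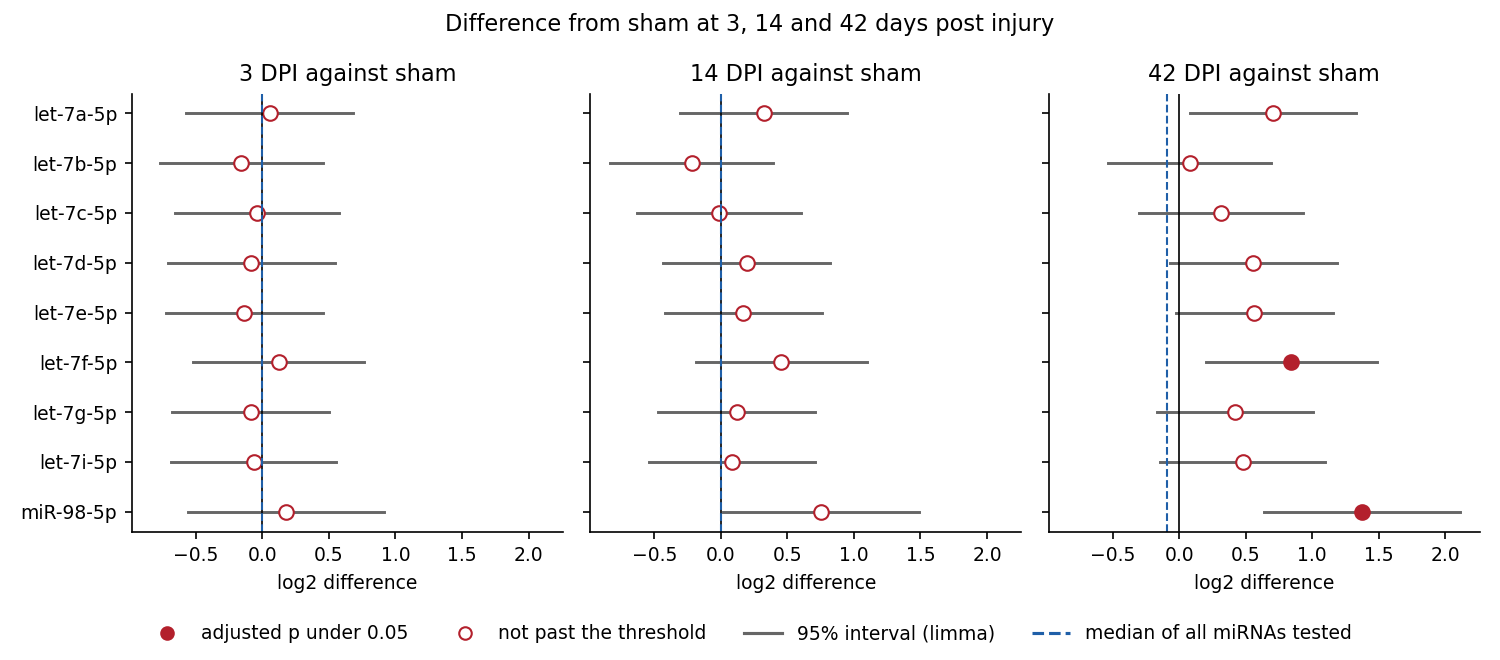
Log2 difference from sham (x axis) of the 9 members (y axis) at 3, 14, and 42 DPI, with 95% intervals from limma, filled points for an adjusted p under 0.05 and a dashed line at the median of all miRNAs tested. At 42 DPI the points ran from 0.08 for let-7b-5p to 1.38 for miR-98-5p, and only let-7f-5p and miR-98-5p were filled.

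miR-98-5p showed the largest difference of the family. On the sham arrays its log2 scaled signal was -3.20, -3.06, and -2.80 for replicates 1, 2, and 3, and at 3 DPI it was -3.04, -2.52, and -2.97. At 14 DPI it was -3.08, -1.99, and -1.73, and at 42 DPI it was -1.40, -1.84, and -1.69. The 42 DPI arrays were above all sham and 3 DPI arrays, while replicate 1 of 14 DPI sat among the sham arrays and replicates 2 and 3 near 42 DPI. The log2 difference between 42 DPI and sham was 1.38 (SE 0.32, 95% interval 0.64 to 2.11, limma adjusted p = 0.0152), a 2.59-fold change. Between 42 and 3 DPI it was 1.20 (SE 0.32, 95% interval 0.46 to 1.94, limma adjusted p = 0.0284), where 38.3% of all miRNAs tested were called and no other member was. In that comparison, too, the groups did not overlap in 8 of 9 members, all but let-7b-5p, against 28.6% of all miRNAs tested. The summed intensity was only 26.1 to 50.0 units on the sham arrays against 388 to 1111 at 42 DPI, and on sham replicate 2 just 53.3% of the spots of its better probe lay well above background.

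The call for miR-98-5p against sham was lost without sham replicate 1 (1.25, limma adjusted p = 0.0617) and without 42 DPI replicate 1 (1.25, adjusted p = 0.0601). With slide as a block it was 1.08 (adjusted p = 0.318), and with normexp background correction, which adds an offset of 50 to every spot, it was -0.05 (adjusted p = 0.806). Within slide 2 alone, the difference between 42 and 3 DPI was of similar size, 1.102, and was not called (adjusted p = 0.112), as was none of the 486 miRNAs in that setting. With slide as a block, too, none was called between 42 DPI and sham. Only 3 DPI had arrays on both slides, with replicate 1 alone on slide 1. In that setting the slide adjustment of the differences from sham, here and below, thus rests on that array.

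let-7f-5p, which differs from let-7a-5p only by G12A, rose by the next largest amount. Its log2 scaled signal on sham replicates 1, 2, and 3 was 2.30, 2.59, and 2.80, and at 3 DPI it was 2.74, 2.88, and 2.45. At 14 DPI it was 2.30, 3.29, and 3.47, and at 42 DPI it was 3.52, 3.31, and 3.38. Again the arrays of 42 DPI exceeded all sham arrays, and 14 DPI replicate 1 was as low as the lowest sham array. The log2 difference between 42 DPI and sham was 0.84 (SE 0.28, 95% interval 0.20 to 1.49, limma adjusted p = 0.0487), a 1.79-fold change. This call stood close to its threshold. It was lost when any 1 of 10 of the 12 arrays was left out, when replicate numbers entered as a block (limma adjusted p = 0.0639), and with slide as a block (0.92, adjusted p = 0.327). The value itself was smaller with quantile normalization (0.33, adjusted p = 0.109) and in the deposited table (0.57, adjusted p = 0.0851), and it was not called in either.

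The floor to which dim values were raised also decided calls. It was first run at -3.66 on the log2 scale, the highest detection limit of the arrays, and -5.06 was adopted afterwards with both outcomes known. At -3.66 all member levels and differences stayed as they were, since none lay at the floor, but the adjusted p became 0.0893 for let-7f-5p against sham and 0.0607 for miR-98-5p between 42 and 3 DPI. Only miR-98-5p between 42 DPI and sham kept its call, at an adjusted p of 0.0317.

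let-7a-5p followed. It ran from 3.01 to 3.45 on the sham arrays, from 3.10 to 3.45 at 3 DPI, from 2.85 to 4.04 at 14 DPI, and from 3.90 to 4.04 at 42 DPI, without overlap between sham and 42 DPI. The difference of 0.70 (95% interval 0.08 to 1.33) had a limma adjusted p of 0.0742. let-7e-5p differed by 0.57 (adjusted p = 0.120), let-7d-5p by 0.56 (0.141), let-7i-5p by 0.48 (0.196), let-7g-5p by 0.42 (0.224), and let-7c-5p by 0.31 (0.393) in the same fit. None of these 6 passed the threshold, and their intervals reached up to between 0.93 and 1.33.

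let-7b-5p, the member with the highest GC content, stood at the other end. Its log2 scaled signal was 3.59, 4.00, and 3.98 on the sham arrays, 3.96, 3.80, and 3.33 at 3 DPI, 3.01, 3.84, and 4.06 at 14 DPI, and 4.00, 3.90, and 3.91 at 42 DPI. The groups overlapped throughout. The difference between 42 DPI and sham was 0.08 (95% interval -0.53 to 0.69, limma adjusted p = 0.875), so a change of up to 0.69 on the log2 scale lies within the interval.

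At 3 DPI no member was called against sham, and no miRNA of the 486 was (0.0% called, with 2.26% at an unadjusted p under 0.05). The members' log2 differences ran from -0.16 for let-7b-5p to 0.18 for miR-98-5p with a median of -0.07, against a median of 0.00 for all miRNAs tested. The widest 95% interval, that of miR-98-5p, ran from -0.56 to 0.91. For no member did the groups lie apart (2.06% of all miRNAs tested).

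At 14 DPI no member was called against sham (3.7% of all miRNAs tested were), with log2 differences from -0.22 for let-7b-5p to 0.75 for miR-98-5p and a median of 0.17. All 9 members overlapped between these groups, while 14.4% of all miRNAs tested did not. miR-98-5p alone had an unadjusted p under 0.05 (21.6% of all miRNAs tested did), with an adjusted p of 0.221 in limma. Replicate 1 decided this comparison. The mean log2 level of the 9 members was 1.79 on 14 DPI replicate 1 against 2.70 and 2.92 on replicates 2 and 3. Across all miRNAs tested that array correlated at 0.885 and 0.875 with replicates 2 and 3, which correlated with each other at 0.996. Without it, 4 members and 33.0% of all 491 miRNAs then tested were called against sham, among them miR-98-5p with a difference of 1.14 (adjusted p = 0.0101) and let-7f-5p with 0.80 (adjusted p = 0.0154). Without it and 3 DPI replicate 3, the array with the next lowest family mean (1.96), 5 members were called at 14 DPI and 7 at 42 DPI, beside 43.8% and 58.9% of all miRNAs tested. Both arrays were singled out after their values were seen.

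Among the injured groups, no member was called between 14 and 3 DPI (0.617% of all miRNAs tested were called, and without 14 DPI replicate 1, 27.3% and 5 members were) or between 42 and 14 DPI (0.0% called, with 10.9% at an unadjusted p under 0.05). The differences between 42 and 14 DPI were alike across the family, from 0.30 for let-7b-5p to 0.62 for miR-98-5p, with adjusted p-values from 0.468 to 0.590 in limma. Leaving out 14 DPI replicate 1 brought their median from 0.38 to 0.02.

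The share of the array signal held by the family varied in the same way. The 9 members made up 14.7%, 19.1%, and 21.8% of the summed miRNA signal of sham replicates 1, 2, and 3, and 19.8%, 20.2%, and 12.5% at 3 DPI. The share was 11.7%, 22.1%, and 23.1% at 14 DPI, and 26.2%, 23.2%, and 24.5% at 42 DPI. The 42 DPI arrays held the 3 highest shares, and the lowest shares fell on 14 DPI replicate 1 and 3 DPI replicate 3. The 42 DPI arrays were also the brightest, and the part of brightness in the family's share was not tested.

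**Figure D3:**
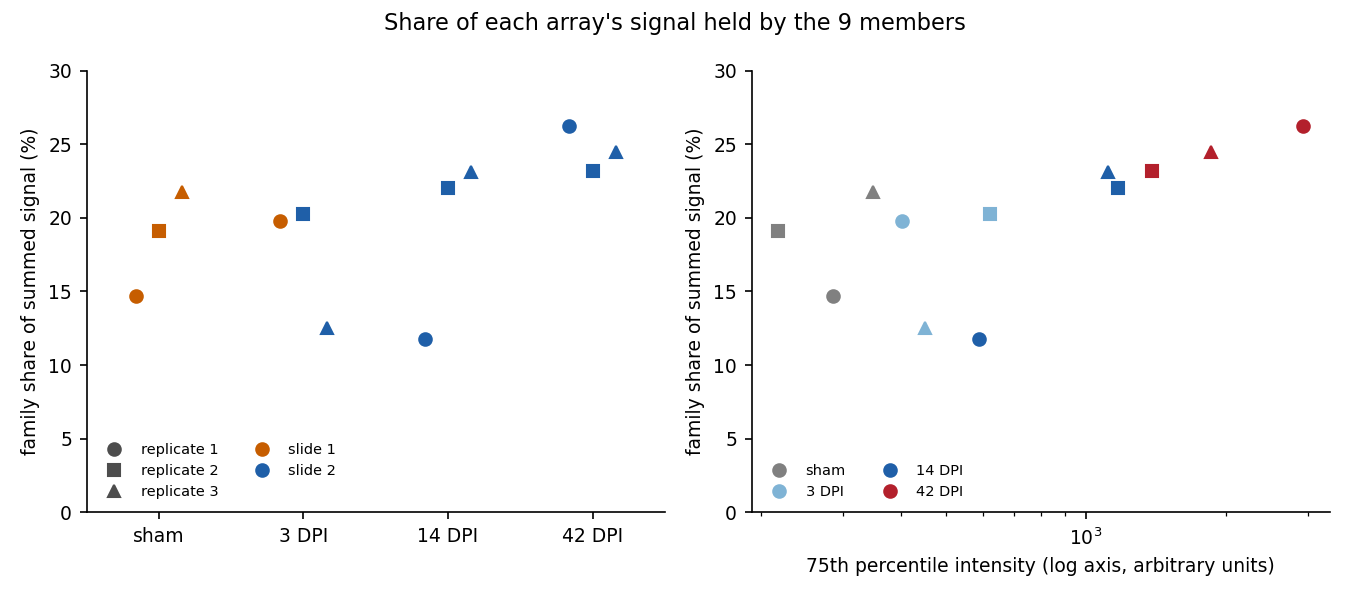
Percent of the summed miRNA signal held by the 9 members on each array, by group on the left (marker for replicate, color for slide) and against the array's 75th percentile intensity on a log axis on the right (color for group). The shares ran from 11.7% to 26.2%, and the 3 arrays of 42 DPI lay highest on both axes.

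Comparing members within an array removes the scaling between arrays. Relative to the mean of the 8 let-7 members on the same array, let-7b-5p lay at 0.94 ± 0.07 on the sham arrays (log2, mean ± SD, n = 3), 0.82 ± 0.09 at 3 DPI, 0.58 ± 0.04 at 14 DPI, and 0.52 ± 0.03 at 42 DPI. let-7f-5p lay at -0.36 ± 0.04, -0.18 ± 0.10, -0.04 ± 0.05, and -0.01 ± 0.03 in the same order. The 2 thus moved in opposite directions within the family, and neither overlapped with sham at 14 or 42 DPI. Here 14 DPI replicate 1 no longer stood apart, since let-7f-5p spanned only -0.10 to 0.01 over the 14 DPI arrays.

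Relative to sham, the other within-family shifts at 42 DPI were 0.88 for miR-98-5p, 0.21 for let-7a-5p, and -0.18 for let-7c-5p. let-7d-5p, let-7e-5p, let-7g-5p, and let-7i-5p shifted by less than the least of these, from -0.08 to 0.07. At 42 DPI, 7 of 9 members lay outside the sham range (4 higher, 3 lower), at 14 DPI 7 did, and at 3 DPI only let-7f-5p did. Set against the same let-7 mean, 82.7%, 21.6%, and 3.7% of all miRNAs tested were outside the sham range at 42, 14, and 3 DPI. The let-7 members are themselves part of that mean, unlike the other miRNAs, so these shares are not a like background. No conclusion is drawn from the members' counts. A value below 0 here says only that a member changed less than the let-7 mean.

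The let-7 mean became the reference after the values had been seen. The mean of all 9 members, which includes miR-98-5p, was used first, and the choice decides some directions. With it, let-7d-5p lay below the sham range at 14 and 42 DPI (-0.01 and -0.04) instead of above it (0.06 and 0.06), and let-7i-5p also lay below it at 42 DPI. let-7a-5p lay above it at 3 DPI as well. The counts were then 2 higher and 0 lower at 3 DPI, 3 higher and 4 lower at 14 DPI, and 3 higher and 5 lower at 42 DPI, beside 3.91%, 22.2%, and 82.5% of all miRNAs tested. Those shares are again not a like background, since all 9 members are part of this reference. Under both references let-7a-5p, let-7f-5p, and miR-98-5p lay above the sham range at 14 and 42 DPI, and let-7b-5p and let-7c-5p below it.

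**Figure D4:**
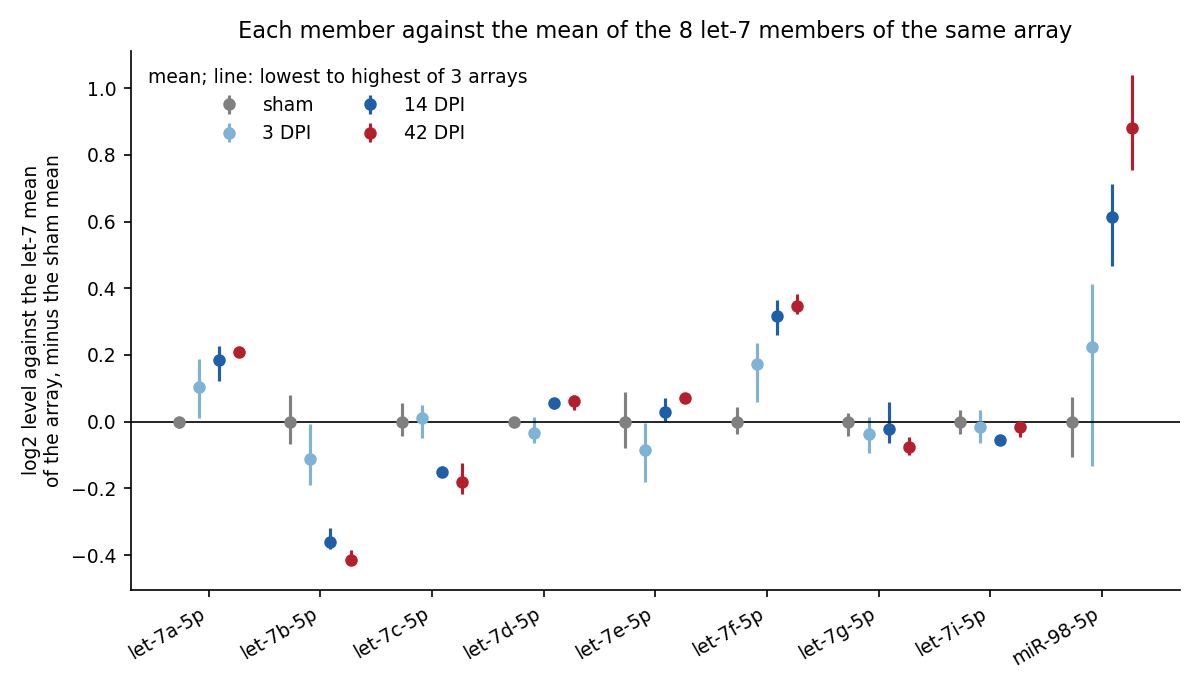
Log2 level of each member (x axis) against the mean of the 8 let-7 members of the same array, with the sham mean set to 0 (y axis), as the mean and the lowest to highest of 3 arrays per group. At 42 DPI miR-98-5p stood at 0.88, let-7f-5p at 0.35, and let-7a-5p at 0.21, while let-7b-5p stood at -0.41.

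Members of lower GC content tended to show larger differences, with exceptions. The 3 members with the largest differences at 42 DPI had GC contents of 31.8% (miR-98-5p and let-7f-5p) and 36.4% (let-7a-5p), and let-7b-5p, with 45.5%, had the smallest. let-7g-5p, at 36.4%, broke the order, with a smaller difference (0.42) than let-7e-5p, let-7d-5p, and let-7i-5p, all at 40.9%. Across the 9 members, the correlation between GC content and the log2 difference was -0.85 at 42 DPI (Spearman's rho -0.79), -0.90 at 14 DPI, and -0.90 at 3 DPI. Without miR-98-5p it was -0.83 at 42 DPI. These 9 points share their arrays and most of their bases and are given as a description. A relation of the same sign ran through the whole array at 42 and 14 DPI, with -0.47 and -0.30 over 418 tested miRNAs with a sequence, while at 3 DPI it was 0.07. Over the 201 with a sequence that were detected on all arrays, it was -0.55, -0.40, and -0.05 at 42, 14, and 3 DPI. The part of base composition in the members' differences was not tested.

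The 2 probes of a member also differed in size of change. At 42 DPI both probes of all 9 members were above sham in the mean, yet in 8 of 9 the dimmer probe gave the larger log2 difference. For let-7d-5p, the dimmer probe gave 0.95 and the brighter 0.48. For let-7c-5p they gave 0.71 and 0.24, and for let-7b-5p 0.22 and 0.03. The largest gap between 2 probes of 1 member was 0.47, close to the median difference of the family. miR-98-5p was the exception, with 1.46 for the brighter and 1.25 for the dimmer probe. The dimmer probe also gave the higher value in 8 of 9 members at 3 DPI and in 8 of 9 at 14 DPI. The 2 probes had the same sign in 4 of 9 members at 3 DPI and 7 of 9 at 14 DPI. With the brightest probe alone in place of the sum, 3 members were called between 42 DPI and sham in place of 2, let-7a-5p being added (limma adjusted p = 0.0499), and 3 between 42 and 3 DPI in place of 1. In that setting 33.5% and 31.5% of all miRNAs tested were called in these comparisons.

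**Figure D5:**
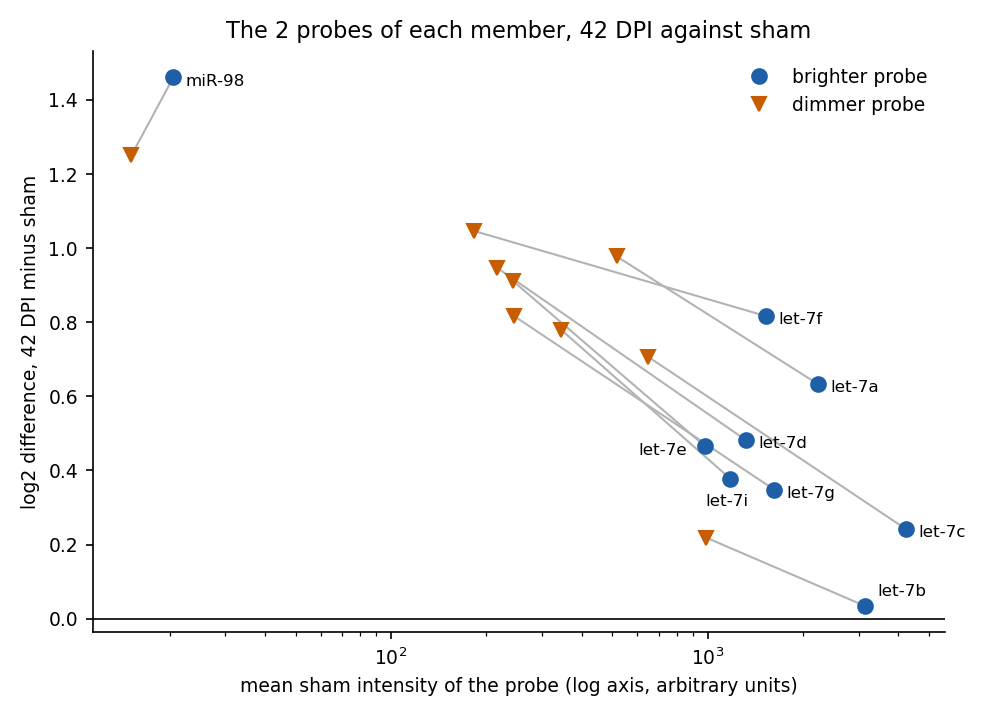
Log2 difference between 42 DPI and sham (y axis) of both probes of each member against the probe's mean sham intensity (x axis, log scale), with a line joining the 2 probes of 1 member. Except for miR-98-5p, the dimmer probe lay higher, from 0.22 for let-7b-5p to 1.05 for let-7f-5p.

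The members moved together from array to array. Over the 12 arrays, the correlations between the levels of 2 members ran from 0.51 (let-7b-5p with miR-98-5p) to 0.99 (let-7a-5p with let-7f-5p), with the array as the shared source. Among the other 221 miRNAs detected on all arrays, the 5 most like the mean of the family over the 12 arrays were miR-29a-3p (r = 0.97), miR-300-5p (0.97), miR-873a-5p (0.96), miR-29c-5p (0.96), and miR-29c-3p (0.96). Of these, miR-29c-5p was called at 42 DPI against sham, with a difference of 0.70 (limma adjusted p = 0.0414).

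Other miRNAs with the same seed were near the limit of detection. let-7k was detected on 5 arrays, none of them sham or 3 DPI, and stayed at the floor after scaling, and miR-1961 was detected on none. let-7j and miR-202-3p carry GAGGUAU in place of GAGGUAG. let-7j was detected on no array, and miR-202-3p on 9, with a difference of -0.13 at 42 DPI (limma adjusted p = 0.864).

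Of 11 opposite arms cut from the same hairpins, 3 were detected on any array and none on all 12. let-7b-3p and let-7f-1-3p were called lower at 42 DPI (limma adjusted p = 0.0466 and 0.0204), although they were well above background on no sham array and on all 42 DPI arrays. Their sham level is thus only an upper bound, and no fold is given.

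The 5 partners that share clusters with let-7 genes in the mouse genome, miR-99a-5p, miR-99b-5p, miR-100-5p, miR-125a-5p, and miR-125b-5p, were detected on all 12 arrays. At 42 DPI 1 was called higher and 1 lower, against 13.6% and 20.6% of all miRNAs tested. miR-125b-5p rose by 0.46 (limma adjusted p = 0.0447). miR-125a-5p, whose gene neighbors that of let-7e, fell by 0.73 (adjusted p = 0.00997), from 1.21 ± 0.24 on the sham arrays to 0.48 ± 0.08 at 42 DPI (log2, mean ± SD, n = 3), while let-7e-5p went from 2.09 to 2.66. The difference between these neighbors was not tested. miR-99a-5p, next to Mirlet7c-1, differed by 0.73 (adjusted p = 0.0704), miR-100-5p by 0.61 (0.0922), and miR-99b-5p by 0.25 (0.355).

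Markers of cell types were read beside the family. Of 5 microglial and myeloid miRNAs, none was detected on all 12 arrays. miR-142a-3p, the most selective for blood-derived and microglial cells, was detected on no sham or 3 DPI array, and the summed scaled signal of the list was 0.125 to 0.160 for sham and 0.150 to 0.191 at 42 DPI (multiples of the 75th percentile). At 42 DPI 2 of its 3 tested members were called higher, miR-142a-3p by 0.46 (limma adjusted p = 0.0496) and miR-146a-5p by 0.51 (0.0256), both close to the floor and detected on no sham array. The 5 neuronal markers summed to 9.08 to 11.4 for sham and 16.8 to 20.5 at 42 DPI, with 2 called higher (miR-124-3p, the defining one, was detected on 5 arrays, none of them sham or 42 DPI), and the 3 oligodendrocyte markers to 1.80 to 2.51 and 4.12 to 4.43, with 2 called higher. All 3 of these lists held members called higher. Of all miRNAs tested at 42 DPI, 13.6% were called higher and 20.6% lower. The part of these lists in the family's levels was not tested. The 3 erythrocyte markers summed to at most 0.174 on any array, and miR-144-3p was detected on no array. Of these, 1 was called lower at 42 DPI, miR-486a-5p (limma adjusted p = 0.0230), although it was detected on no sham array and on all 42 DPI arrays. Its sham level is thus only an upper bound. The 2 endothelial markers summed to 1.01 to 1.41 for sham and 1.38 to 1.62 at 42 DPI with none called.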

How the data were processed

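The authors deposited 1 Agilent Feature Extraction 10.7.1.1 file per array, with a background-corrected intensity for each of 58594 spots (56430 not controls). They also deposited a processed table of log2 values with a median of -3.32 in its first column. Of the 665 distinct values in that column, 327 were found in all 12 columns. How that table was normalized is not given in the sources used here. After removal of control and outlier spots, spots were averaged per probe and probes summed per miRNA. Sums were scaled to the array's 75th percentile, values under 0.03 (-5.06 as log2) were raised to it, and log2 was taken. The plan set no value for this floor, and a floor of -3.66 had been run first. limma 3.58.1 (R 4.3.3) was fitted to the 12 arrays, two-sided and with no covariate, and p-values were Benjamini-Hochberg adjusted over the 486 miRNAs that all arrays of some group detected. The fit was tested on simulated data. Other steps used Python 3.11.15, pandas 2.3.3, and NumPy 2.4.6. Alternatives were the brightest probe, the scanner's total signal, normexp (offset 50), other scalings, floors, and filters, fits of 2 groups, blocks for replicate or slide, slide 2 alone, the t-test of the methods, the deposited table, and the omission of each array.

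All 9 members are named, with listed relatives and the 5 most alike miRNAs. The members and lists were chosen with earlier results of these data known. The reference within the family was changed once after its values were seen, and both versions are given. A pair of spots on each sham file bears different names from the injury files, none of a member, and the latter names were applied. Precision is limited by the 3 arrays per group. Replicate numbers paired sham with 14 DPI by the data alone, since deviations from group means correlated at 0.834, 0.437, and 0.746 for numbers 1, 2, and 3, and in every other pair of groups at least 1 correlation was below 0.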

Additional observations from a re-analysis of the deposited data

Results flagged for a closer look

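The change of miR-98-5p from sham differed between 42 and 3 DPI. Its log2 difference from sham was 1.38 at 42 DPI and 0.18 at 3 DPI, and the contrast between the time points was 1.20 (limma adjusted p = 0.0284), with all 3 arrays of 42 DPI above all 3 of 3 DPI. Both differences use the same sham arrays, which cancel in the contrast. Within slide 2 the difference was of similar size, 1.102, and neither it nor any other of the 486 miRNAs was called (adjusted p = 0.112). The call was lost with the floor at -3.66 (adjusted p = 0.0607), with no filter on dim miRNAs (0.149), and with slide as a block (0.0626). It was also lost with normexp, which cut the value to 0.243 (adjusted p = 0.219). Of all miRNAs tested, 3.91%, 0.0%, 18.9%, and 85.2% were called in these settings, in the same order. The call was lost, too, when any 1 of 5 of the 12 arrays was left out. These were replicates 1 and 3 of 3 DPI (0.0625 and 0.0958) and replicates 1, 2, and 3 of 42 DPI (0.101, 0.0659, and 0.0804). Over all 12 such omissions the value ran from 1.08 to 1.36.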

How the results depend on the processing

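The median log2 difference of the members at 42 DPI against sham was positive under each alternative run, but which members passed the threshold depended on the processing. The members' counts are to be read beside the share of all miRNAs called, which at 42 DPI against sham was 34.2% as reported, 35.4% with quantile normalization, 51.2% in the deposited table, 88.3% with normexp, 41.8% with the percentile over all miRNAs, 14.0% with the floor at -3.66, 0.957% with no filter on dim miRNAs, 53.9% with the 2 groups alone, and 0.0% with slide as a block. That share was 33.5% with the brightest probe, 37.0% with the scanner's total signal, and 43.6% by the methods' t-test. With only miRNAs detected on all arrays it was 51.3%. For 42 DPI against sham, where 2 members were called, the count was 3 with the brightest probe, 3 with the scanner's total signal, 7 with normexp (under which miR-98-5p turned to -0.048), 4 with the percentile over all miRNAs, 1 with quantile normalization (run on the summed signals before log2, where the plan named log2 values), 1 with the floor at -3.66, 0 with no filter on dim miRNAs, 5 with the 2 groups alone, 0 with slide as a block, 5 by the methods' t-test (6 before adjustment), and 1 in the deposited table. For 42 against 3 DPI, where 1 was called, it was 3 with the brightest probe, 6 with normexp, 7 with the percentile over all miRNAs, 2 with quantile normalization, 0 with the floor at -3.66, 0 with no filter, 6 with the 2 groups alone, 0 with slide as a block, 0 within slide 2, 5 by the t-test (7 before adjustment), and 2 in the deposited table. For 14 DPI against sham the count of members was 1 with normexp in place of 0, beside 76.1% of all miRNAs called. Scaling moved the whole array at 42 DPI against sham, where the median of all miRNAs tested went from -0.09 to -1.67 with normexp, 0.44 in the deposited table, and 0.29 with the percentile over all miRNAs, which put the members' median at 1.33 there, 1.49 for 42 against 3 DPI, 0.63 for 14 against 3 DPI, and 0.87 for 42 against 14 DPI. The causes were not tested.

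The replicate number as a block left 1 member called at 42 DPI against sham (let-7f-5p lost its call) and changed no other member's call, the comparison of 14 DPI with sham included, where the numbers paired. With that block 28.8% of all miRNAs were called at 42 DPI against sham. Omission of single arrays gave 0 to 4 members called for 14 DPI against sham, 0 to 5 for 42 DPI against sham, 0 to 5 for 14 against 3 DPI, and 0 to 6 for 42 against 3 DPI, with each upper end reached without 14 DPI replicate 1, and 0 throughout for the others. Without that array, 33.0%, 49.9%, 27.3%, and 50.7% of all miRNAs then tested were called, in the same order of comparisons. Added after seeing the data, the floor at -3.66 is given above, and leaving out both 14 DPI replicate 1 and 3 DPI replicate 3 gave 5 members at 14 DPI against sham, 7 at 42 DPI against sham, and 5 for 42 against 3 DPI, with a median of 0.02 for 42 against 14 DPI. Beside these counts, 43.8%, 58.9%, and 41.5% of all miRNAs then tested were called. Between 14 and 3 DPI no member was called without both arrays, beside 7.33% of all miRNAs then tested. Member values changed sign in 40 of 243 recomputations at 3 DPI, 27 at 14 DPI, and 5 at 42 DPI against sham. With 3 arrays per group, dim signals such as that of miR-98-5p on the sham arrays limit what can be told.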
